A study of Mus musculus with 8 samples.

Results

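The receptors for immunoglobulin G, their shared signalling chain and the kinase that acts on it were measured as mRNAs in contused and control mouse spinal cord. The set holds 7 of the 20476 mRNA genes on the array: the activating receptors Fcgr1, Fcgr3 and Fcgr4, the inhibitory receptor Fcgr2b, the signalling chain Fcer1g, the kinase Syk and the neonatal receptor Fcgrt. Members were found by symbol, through the gene name or the RefSeq mRNA accession of each probe. All 16 of their probes, 4 for Fcgr2b and 2 for each of the other genes, passed the filter on dim probes.

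RNA came from the T9 to T10 spinal cord of 8 female mice aged 8 weeks, 1 array per mouse, with no strain or genotype given. In 4 mice the cord had been contused, that is, bruised by a blow without being severed. The other 4 were controls, called sham in the design text and normal cord in the sample descriptions. All contusion titles give day 3, while the descriptions of contusion replicates 1, 2, 3 and 4 give days 3, 4, 5 and 6.

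Antibody bound to a target is read by Fc gamma receptors on macrophages, microglia and other leukocytes. The activating receptors have no long signalling tail of their own and pair with Fcer1g, whose ITAM tyrosines are phosphorylated by Src family kinases and then dock Syk. Syk passes the signal to lipid enzymes and to the actin machinery that closes the phagocytic cup, while Fcgr2b carries an ITIM motif that recruits phosphatases. Fcgrt stands apart: it works inside cells, where it saves immunoglobulin G and albumin from breakdown.

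The arrays carry synthetic probes of 60 bases, and 3 of them are shown because they read protein-coding parts of the receptor mRNAs. The Fcgr2b probe, at chr1:172895833-172895892 of mm9 on the minus strand, holds codons for the end of the membrane-spanning stretch and the residues after it. The Fcgr3 probe, at chr1:172984129-172984188 on the same strand, lies in an immunoglobulin domain, which is very alike in Fcgr2b and Fcgr3, so that this signal is uncertain between the 2 genes. The Fcgrt probe, at chr7:52350556-52350615, minus strand, stands for its gene below. Over the 108 pairs of member probes from different genes, the longest shared run was 11 bases. This compares probes with each other, and binding of a probe to another gene's mRNA was not checked.
Fcgr2b probe: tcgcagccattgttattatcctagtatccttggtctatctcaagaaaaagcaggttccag
Fcgr3 probe: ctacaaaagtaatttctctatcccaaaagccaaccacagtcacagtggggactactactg
Fcgrt probe: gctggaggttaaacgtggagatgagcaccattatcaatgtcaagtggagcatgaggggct

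Of the genes that rose, Fcgr2b, Fcer1g and Syk are left out here, and promoters of the 3 activating receptors are shown. Each runs over the 250 bases before a RefSeq transcription start of GRCm38.p6: chr3:96293970-96294219 on the minus strand for Fcgr1, chr1:171059395-171059644 on the minus strand for Fcgr3 (the later of 2 starts) and chr1:171018676-171018925 on the plus strand for Fcgr4. Capitals mark GAGGAA or its complement TTCCTC, the core letters bound by PU.1, a transcription factor of myeloid cells.
Fcgr1: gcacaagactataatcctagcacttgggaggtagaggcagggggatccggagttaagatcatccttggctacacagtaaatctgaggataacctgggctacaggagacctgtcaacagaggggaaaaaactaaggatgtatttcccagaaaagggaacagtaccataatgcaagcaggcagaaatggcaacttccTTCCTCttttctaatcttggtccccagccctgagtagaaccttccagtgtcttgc
Fcgr3: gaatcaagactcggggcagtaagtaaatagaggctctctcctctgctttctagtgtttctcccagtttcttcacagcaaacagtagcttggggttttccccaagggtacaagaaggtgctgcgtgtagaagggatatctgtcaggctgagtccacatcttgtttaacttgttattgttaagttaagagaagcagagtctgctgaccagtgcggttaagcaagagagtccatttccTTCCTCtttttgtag
Fcgr4: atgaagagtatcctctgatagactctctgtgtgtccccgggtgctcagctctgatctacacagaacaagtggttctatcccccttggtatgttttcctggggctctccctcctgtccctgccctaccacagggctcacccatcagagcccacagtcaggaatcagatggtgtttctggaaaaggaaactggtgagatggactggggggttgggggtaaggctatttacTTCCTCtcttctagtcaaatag

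Windows of 300 bases around the starts, searched on both strands, held GAGGAA in 5 of the 9 member windows and in 28.3% of all 32851 windows of this length. These 5 windows belong to 4 of the 7 genes, since both windows of Fcgr3 overlap and hold the same match. The windows of Fcgr2b and Fcer1g, which also rose, and of Fcgrt had no match. It began 55 bases before the start in Fcgr1, 15 in Fcgr3 and 22 in Fcgr4, and 9 before the later start of Syk. Fcgr1 and Fcgr3 shared the run TTCCTTCCTCTTTT of 14 bases, from positions −59 and −19. It was present in 5 windows of all, among them that of Fcgr1 and both of Fcgr3. The STAT-type TTCNNNGAA was found in 1 member window, that of Fcgr1 (8.3% of all windows), and the interferon-response element in 1, that of Fcgr4 (3.44%). TTNNGCAA, a C/EBP-type motif, was found in 3 member windows, both of Fcgr3 and that of Fcgrt (10.8%). These matches describe letters and were not tested as binding sites.

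Levels below are log2 processed intensities relative to the array's 75th percentile, differences (log2, contused minus control) carry limma's standard error and rest on 4 arrays per group, and adjusted p-values come from limma over all features tested. A probe's level depends on its own binding, so levels are compared between groups and not between genes. Of the 7 genes, 6 were called higher (adjusted p under 0.05), against 25.8% of the 18198 mRNAs tested, and 0 were called lower; in either direction 51.2% of mRNAs were called. In those same 6, every contusion array lay above every control array, which held for 26.6% of mRNAs. The median difference over the 7 genes was 2.15, and over all mRNAs −0.0016. In bulk tissue, more cells of a type and more RNA per cell cannot be told apart.

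**Figure D1:**
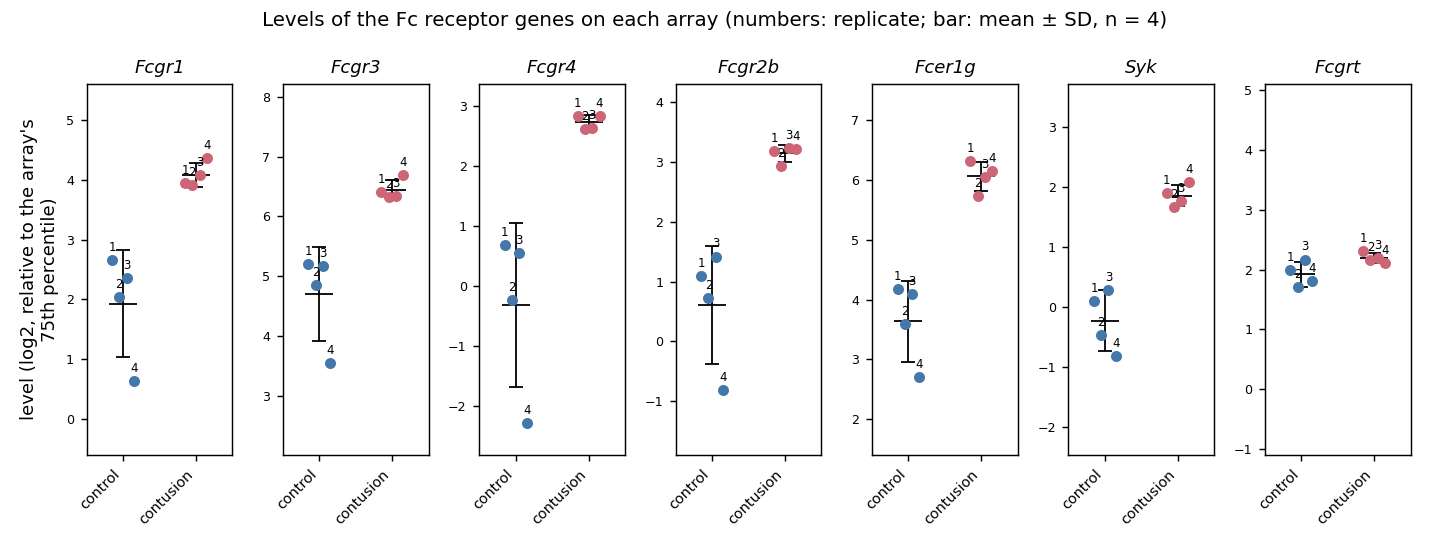
Level of each of the 7 genes (y axis, log2 relative to the array's 75th percentile; each panel spans the same number of log2 units around its own middle) on the 4 control arrays (blue) and 4 contusion arrays (red), numbered by replicate, with bars for mean ± SD. The groups are apart in every panel but that of Fcgrt, and control replicate 4 is the lowest array in the 6 other panels.

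Fcgr1 encodes the high-affinity receptor, which can hold single antibody molecules. Its levels on control replicates 1 to 4 were 2.66, 2.05, 2.36 and 0.65, and on contusion replicates 1 to 4 they were 3.95, 3.91, 4.09 and 4.37. All contusion arrays lay within 0.45 of each other, while control replicate 4 stood well under the other controls. Fcgr1 rose 4.44-fold (2.15 ± 0.39, adjusted p = 0.00327).

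Fcgr3, a low-affinity receptor for immune complexes, had control levels of 5.21, 4.86, 5.18 and 3.54 and contusion levels of 6.41, 6.32, 6.34 and 6.69. The groups did not overlap, and control replicate 4 was again far below the rest. Its rise was 3.35-fold (1.74 ± 0.35, adjusted p = 0.00484).

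Fcgr4, a receptor for mouse IgG2 antibodies, had control levels of 0.69, −0.24, 0.55 and −2.29 against contusion levels of 2.84, 2.62, 2.64 and 2.84. The 4 contusion arrays were nearly equal, while the controls spread over 2.98 log2 units. Fcgr4 rose 8.34-fold (3.06 ± 0.59, adjusted p = 0.00419). That fold rests in part on control replicate 4: without it the rise was 5.30-fold, and the second probe of the gene gave 5.29-fold with all arrays. Without control replicates 1 and 3, the highest controls of this gene, the difference was 4.00.

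Fcgr2b, the only inhibitory receptor of the family, had levels of 1.09, 0.73, 1.42 and −0.82 on the control arrays. The contusion arrays read 3.18, 2.93, 3.23 and 3.22. It thus moved in the same direction as the activating receptors, with no overlap between groups. The rise was 5.79-fold (2.53 ± 0.43, adjusted p = 0.00224), and 9.08-fold without control replicates 1 and 3, its highest controls.

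Fcer1g, the ITAM chain that the activating receptors need at the cell surface, had control levels of 4.17, 3.59, 4.10 and 2.70. Contusion replicates read 6.31, 5.73, 6.05 and 6.14. The groups lay 1.56 log2 units apart at their nearest arrays. Fcer1g rose 5.35-fold (2.42 ± 0.31, adjusted p = 0.000633).

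Syk, the tyrosine kinase that docks on the phosphorylated chain, had control levels of 0.10, −0.46, 0.28 and −0.82 and contusion levels of 1.90, 1.68, 1.77 and 2.09. Every contusion array lay above every control array. Syk rose 4.25-fold (2.09 ± 0.23, adjusted p = 0.000363).

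Fcgrt read 2.00, 1.70, 2.17 and 1.81 on the control arrays and 2.31, 2.16, 2.20 and 2.10 on the contusion arrays. Control replicate 3 lay above 2 contusion arrays, so the groups overlapped. The difference of 0.27 ± 0.11, with a 95% interval from 0.03 to 0.52, was not called (adjusted p = 0.0786). It passed the threshold without control replicate 3 (0.36, adjusted p = 0.0232), without control replicates 1 and 3 (0.43, adjusted p = 0.0116), with normexp background correction (0.29, adjusted p = 0.0309) and with a variance trend (adjusted p = 0.0424).

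Each slide of the array set held both groups, slide 1 with control replicates 2, 3 and 4 and contusion replicate 1, and slide 2 with the other arrays. Taken slide by slide, Fcgr1 differed by 2.26 on slide 1 and 1.46 on slide 2. In the same order the values were 1.88 and 1.24 for Fcgr3, 3.51 and 2.01 for Fcgr4, and 2.73 and 2.03 for Fcgr2b. They were 2.85 and 1.80 for Fcer1g, 2.23 and 1.75 for Syk, and 0.41 and 0.16 for Fcgrt. Every one was above 0, and with slide as a block the same 6 genes were called. The contused cord that both labels place at day 3 was on slide 1 and the other 3 were on slide 2, so the slide cannot be told apart from the day. With contusion replicate 1 alone against the 4 controls, assuming that it varies like the controls, Syk stayed under the threshold (adjusted p = 0.0462). The other 5 kept differences of 1.71 to 3.17, with adjusted p = 0.0503 for Fcer1g, 0.114 for Fcgr2b, 0.145 for Fcgr4, 0.152 for Fcgr1 and 0.165 for Fcgr3.

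Every probe was also tested by itself. Of the 16 probes, 14 were called higher and had no overlap between groups, against 26.5% called higher and 26.7% without overlap among 41078 mRNA probes. The other 2 were both probes of Fcgrt, at 0.27 ± 0.11 and 0.26 ± 0.11. The coding probe of Fcgr2b printed above rose by 2.74 ± 0.49 and the other 3 probes of that gene by 2.41 to 2.72. For Fcgr3, the probe in the immunoglobulin domain rose by 1.90 ± 0.36, against 1.74 ± 0.35 for the probe that stands for the gene. Second probes gave 1.76 ± 0.27 for Fcgr1, 2.40 ± 0.37 for Fcgr4, 2.18 ± 0.26 for Fcer1g and 1.85 ± 0.30 for Syk.

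**Figure D2:**
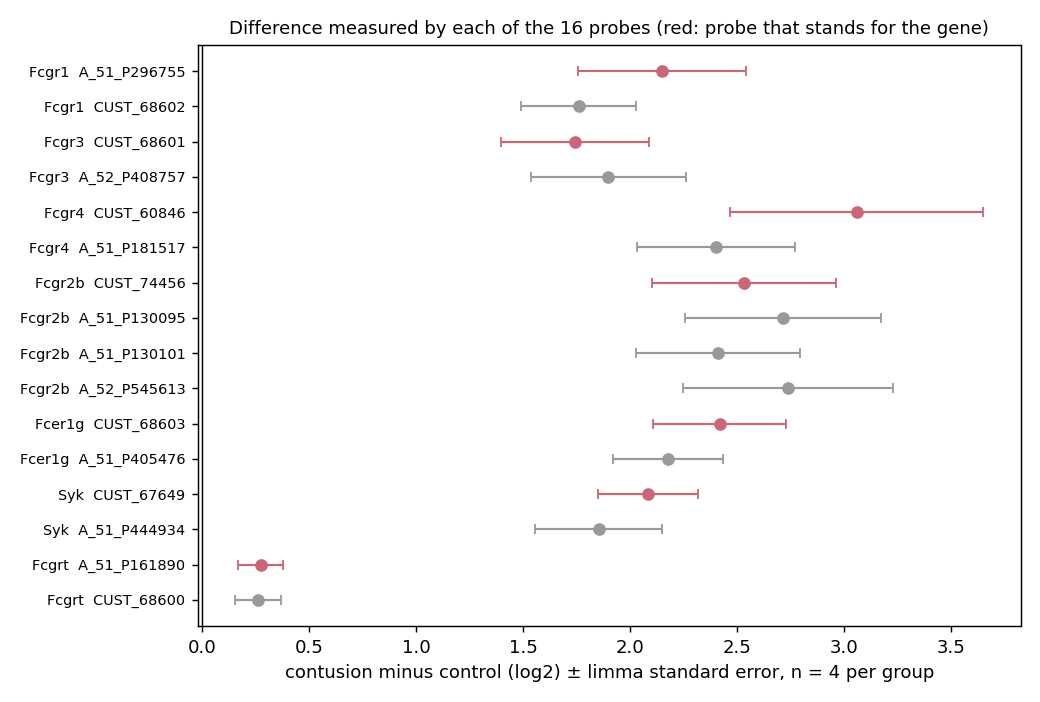
Contusion minus control (x axis, log2) for each of the 16 probes, grouped by gene, with bars for limma's standard error and red for the probe that stands for the gene. The 14 probes of the 6 genes that rose lie between 1.74 and 3.06, apart from both Fcgrt probes at 0.27 and 0.26.

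Whether 2 members rose by unequal amounts was asked for all 21 pairs with a two-sided exact permutation test on the difference of their levels on each array. With 70 splits of the arrays the smallest possible p is 0.0286, and 13 pairs reached it, for an adjusted p of 0.0462. All 6 pairs with Fcgrt were among them: each other member rose more than Fcgrt, by 1.47 (Fcgr3) to 2.79 (Fcgr4) log2 units. Among the other 15 pairs, 7 passed. Fcgr3 rose less than Fcgr4 by 1.32 ± 0.30, less than the inhibitory Fcgr2b by 0.79 ± 0.15, less than Fcer1g by 0.68 ± 0.14 and less than Fcgr1 by 0.41 ± 0.09. Fcgr4 rose more than Fcgr1 by 0.91 ± 0.26, more than Syk by 0.97 ± 0.47 and more than Fcer1g by 0.64 ± 0.36.

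With the probe that stands for each gene, the inhibitory Fcgr2b was not shown to differ from 2 activating receptors. These were Fcgr4 (higher by 0.53 ± 0.23, exact permutation p = 0.0571) and Fcgr1 (lower by 0.38 ± 0.16, exact permutation p = 0.0857). For Fcgr2b and Fcer1g, which do not pair with each other, the 2 changes differed by 0.11 ± 0.20. With 4 arrays per group, these p-values do not show that the genes moved alike. The calls depend on the probes, and with the mean of each gene's probes 15 pairs passed. Fcgr2b then rose more than Fcgr1 (Fcgr1 minus Fcgr2b −0.65, exact permutation, adjusted p = 0.04). Fcgr1 against Fcer1g, Fcgr2b against Syk and Fcer1g against Syk also passed (exact permutation, adjusted p = 0.04 each). Not passing then were Fcgr1 against Fcgr3 (0.13, exact permutation, adjusted p = 0.212) and Fcgr4 against Fcer1g (0.43, exact permutation, adjusted p = 0.188). With normexp correction the lowest adjusted p of the exact test was 0.05, which left 0 pairs under the threshold. The exact p has a floor, so whether any pair passes turns on how many pairs reach it. A count of 0 there does not show that the differences were gone.

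The control arrays differed among themselves more than the contusion arrays did. Replicate 4 was the lowest and replicate 2 the second lowest control in 6 of the 6 genes that rose. How many of all mRNAs share this order was not counted. With the group means removed, pairs of these 6 genes correlated at r of 0.87 to 0.99, so they are not 6 separate observations. The SD of the controls exceeded that of the contusion arrays in 7 of 7 genes, against 66.1% of all mRNAs. Markers of macrophages and monocytes followed the same order: their mean levels were 1.96, 1.33, 2.05 and 0.66 on control replicates 1 to 4. All 11 of those markers were called higher, against 25.8% of all mRNAs. Their summed linear level ran from 59.7 to 161 on the control arrays and from 514 to 625 on the contusion arrays. The part of these markers' cells in the Fc receptor differences was not tested.

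**Figure D3:**
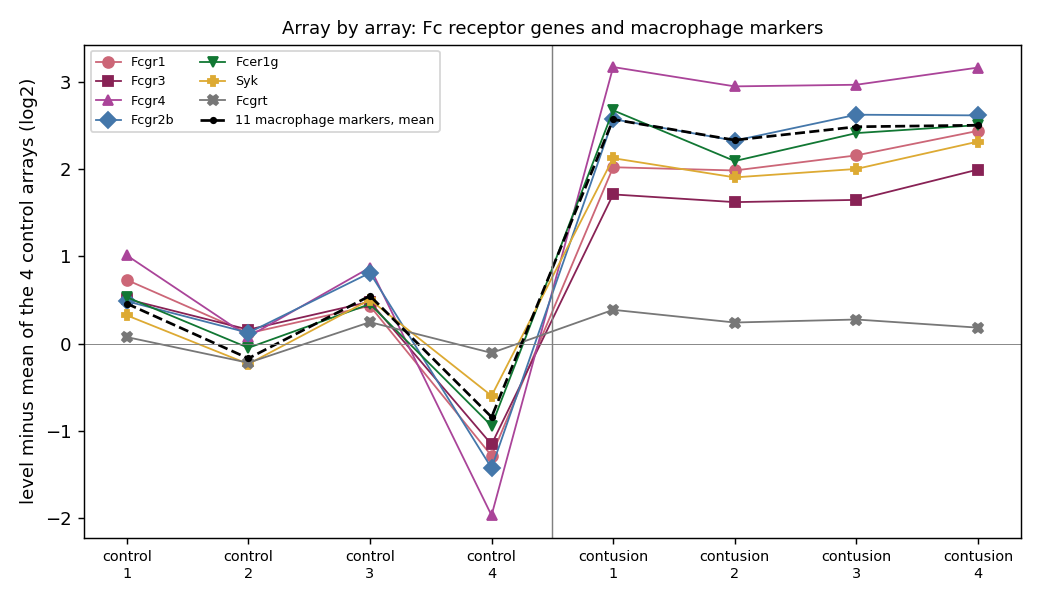
Level of each of the 7 genes minus its mean over the 4 control arrays (y axis, log2) on the 8 arrays (x axis), with the mean of 11 macrophage and monocyte markers as a dashed line. The 6 genes that rose and the markers dip together on control replicate 4 and stay flat over the contusion arrays, while Fcgrt stays within 0.5 of its control mean.

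Markers of other cell types moved less evenly. Of 9 microglial markers 5 were called higher and 0 lower, with summed levels of 87.7 to 155 in controls and 283 to 315 after contusion. Tmem119, a marker of resident microglia, rose by 0.91 ± 0.17 (adjusted p = 0.00378), while P2ry12 (0.25 ± 0.13) and Sall1 (0.22 ± 0.09) were not called. Sall1 was called without contusion replicate 2 (0.27, adjusted p = 0.0461) and with a variance trend (adjusted p = 0.0420). Of 10 neutrophil markers 3 were called higher, and summed levels overlapped, at 19.1 to 141 and 42.7 to 168. Called higher were 3 of 7 B cell, 2 of 5 NK cell, 3 of 8 T cell, 0 of 7 mast cell and basophil, 3 of 7 dendritic cell and 1 of 5 platelet markers, and 1 NK cell and 1 dendritic cell marker were called lower. Beside these counts, 25.8% of all mRNAs were called higher and 25.4% lower, so that several lists lie near the background. The defining NK cell gene Ncr1 was well above background on 0 arrays. Endothelial cells, which also carry Fcgrt, had 6 of 8 markers called higher and 1 lower, and astrocytes 3 of 5 higher and 1 lower. Neuronal markers fell in 5 of 5, and those of neurons, astrocytes and oligodendrocytes were well above background on all arrays. The 9 skeletal muscle markers, with 0 called, summed to 178, 48.3, 11.8 and 12.1 on contusion replicates 1 to 4 and to 9.57 to 22.9 on control arrays. Contusion replicate 1, the only contused cord on slide 1, stood apart in these markers, and replicate 2 was above all controls too. Without these 2 arrays the 6 Fc receptor genes were still called.

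Genes around the receptors were followed in 9 lists of 126 symbols, of which 123 were tested. Of these, 79 (64.2%) were called higher and 5 lower, with a median difference of 0.63. The background of 25.8% of all mRNAs called higher and 25.4% lower stands beside these counts. With contusion replicate 1 alone against the controls, 23 were called higher. Without control replicates 1 and 3, the folds of 10 of the 30 genes named from these lists grew by over 1.5 times. Their differences then ran from 2.76 (Pik3ap1) to 6.42 (Clec4d). Both arrays were the highest controls for Pik3ap1 and Clec4d, as for the Fc receptor genes that rose. Larger rises therefore follow from leaving them out.

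Src family kinases, which phosphorylate the ITAM, were higher in 4 of 6 members with a median of 1.00. Among the kinases of blood cells, Fgr rose by 2.44 ± 0.32 (adjusted p = 0.000677) and Lyn by 1.80 ± 0.24. Their mean levels went from −1.56 to 0.88 for Fgr and from 1.36 to 3.15 for Lyn. With normexp correction the difference of Fgr was 1.81.

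Of 10 adaptors, 8 rose and 1 fell (median 1.17). Lat2, a membrane scaffold of myeloid cells and B cells, rose by 2.25 ± 0.26, Lcp2, which encodes SLP-76, by 2.19 ± 0.27, and Pik3ap1, an adaptor for PI 3-kinase, by 2.12 ± 0.36. Grb2, which links receptors to Ras in most cells, fell by 0.32 ± 0.09 (adjusted p = 0.0179), a call lost with slide as a block (adjusted p = 0.0602). Lcp2 rose by 1.51 with the mean of its probes, and Pik3ap1 by 1.31 with normexp correction.

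Among 17 lipid and calcium enzymes 9 rose and 1 fell (median 0.47). Pik3r5, a regulatory subunit of PI 3-kinase gamma, rose by 2.09 ± 0.19, the kinase gene Btk by 1.85 ± 0.26 and Plcg2, the phospholipase that Syk signalling activates in myeloid cells, by 1.56 ± 0.17. Pik3ca, the catalytic subunit found in most cells, fell by 0.44 ± 0.09 (adjusted p = 0.00516).

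The actin and phagocytic cup list had 21 of 26 members higher and 2 lower (median 0.68). Vav1 and Rac2, an exchange factor and a GTPase of blood cells, rose by 2.22 ± 0.32 and 2.22 ± 0.38, and the actin regulator Hcls1 by 2.09 ± 0.22. Limk1, a kinase that curbs actin turnover, fell by 0.74 ± 0.07 (adjusted p = 0.000193), and Elmo1, which helps engulfment through Rac, fell by 0.38 ± 0.11 (adjusted p = 0.0300). The Elmo1 call was lost when control replicate 2 or 4 or contusion replicate 2, 3 or 4 was left out (adjusted p of 0.0531 to 0.0810) and with slide as a block, while normexp gave −1.14.

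Downstream kinases and NF-kB partners moved least, with 3 of 9 higher, 1 lower and a median of 0.07. The transcription factor gene Nfatc1 rose by 0.84 ± 0.09, Card9, an adaptor below Syk, by 0.71 ± 0.11 and its partner Bcl10 by 0.50 ± 0.06.

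Inhibitors of receptor signalling rose in 13 of the 17 tested of 18, and 0 fell (median 0.91). The ITIM receptor genes Lilrb4a, at 4.07 ± 0.54 (adjusted p = 0.000736), Cd300lf, at 3.98 ± 0.42 (adjusted p = 0.000294), and Pirb, at 2.62 ± 0.48, rose most. Lilrb4a went from 2.53, 1.42, 1.99 and −0.38 on the control arrays to 5.57, 5.39, 5.39 and 5.49 after contusion. Its lowest control was replicate 4, as for Fcgr2b, and without that array Lilrb4a rose by 3.48.

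Receptors that, like Fcer1g, signal through an ITAM chain or through Syk rose in 12 of the 18 tested of 19, and 0 fell (median 1.80). The C-type lectin genes Clec4d and Clec4e, whose products recognise microbial lipids and dead cells through Fcer1g, rose by 5.04 ± 0.79 (adjusted p = 0.00152) and 3.85 ± 0.66 (adjusted p = 0.00232). Pira2, an activating receptor of myeloid cells, rose by 3.40 ± 0.59 (adjusted p = 0.00260). Clec4e and Pira2 were well above background on 3 of the 4 control arrays. These rises move with the processing: normexp gave 3.81 for Clec4d, 1.42 for Clec4e and 1.34 for Pira2. Clec4d was 5.64 without control replicate 3 and 4.25 without control replicate 4, and Pira2 was 2.78 without control replicate 4. For Pira2, the mean of its probes gave 2.41, and probes above background on all arrays 1.43.

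Other Fc receptors were higher in 5 of the 11 tested of 12 and lower in 0 (median 0.22). Fcrl1, a B cell receptor, rose by 2.18 ± 0.32, Fcrls, expressed by microglia and macrophages, by 2.10 ± 0.36, and Pigr, the transporter of polymeric antibodies, by 0.94 ± 0.32 with overlapping groups (adjusted p = 0.0461). Leaving out any of 6 single arrays (control 2, 3 or 4, contusion 2, 3 or 4), or adding slide as a block, ended the Pigr call, and normexp gave 0.69 for Fcrl1. Of 9 ligands and partners 4 rose and 0 fell (median 0.23): C5ar1, a complement receptor that works with Fc receptors, by 3.20 ± 0.21, Ptx3, a pentraxin, by 2.55 ± 0.41 and C1qa, of the C1q complex that binds antibody, by 1.73 ± 0.24. With normexp C5ar1 rose by 2.18. The last of the 4 was B2m, the light chain that Fcgrt needs, named after its values were seen, at 0.93 ± 0.09 (adjusted p = 0.000202).

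**Figure D4:**
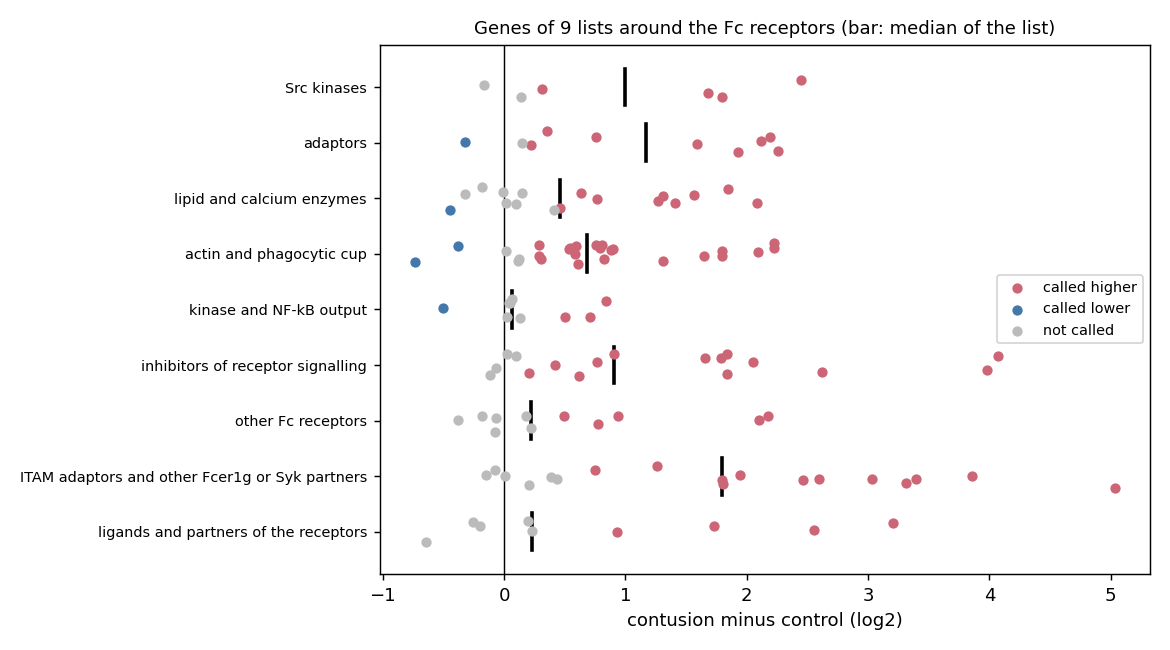
Contusion minus control (x axis, log2) of each tested gene in the 9 lists (y axis), red where called higher, blue where called lower and grey where not called, with a black bar at the list's median. Medians run from 0.07 for kinase and NF-kB output to 1.80 for the ITAM adaptors and partners, and the 5 genes called lower lie in 4 lists.

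The Syk gene also gave 3 circRNAs, closed RNA rings made by back-splicing, whose positions on chromosome 13 lie inside it. The build of these positions is not given in the sources used here. Genes of GRCm38.p6 enclosed 98.2% of all circRNA positions, against 40.8% after a shift of 1000000 bases. No circRNA was placed inside another of the 7 genes. The probe of the brightest one, between 52631657 and 52638247, is shown because its level stayed apart from that of the mRNA.
Syk circRNA probe: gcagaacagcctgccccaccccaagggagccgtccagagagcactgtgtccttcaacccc

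On control replicates 1 to 4 this circRNA read 1.05, 0.95, 0.97 and 0.93, and on contusion replicates 1.02, 0.99, 0.95 and 0.93. The groups overlapped almost fully, and the difference was −0.0044 ± 0.058 with a 95% interval from −0.14 to 0.13 (adjusted p = 0.961). The other 2, from 52610796 to 52612455 and to 52633065, differed by 0.46 ± 0.27 (adjusted p = 0.228) and 0.21 ± 0.18 (adjusted p = 0.397), also with overlap. None of the 3 was called, against 42% of circRNAs called in either direction. The Syk mRNA rose more than each of them, by 2.09 ± 0.26, 1.63 ± 0.30 and 1.88 ± 0.30 (two-sided exact permutation test, p = 0.0286 for each, the smallest possible, and 0.0286 adjusted over the 3).

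**Figure D5:**
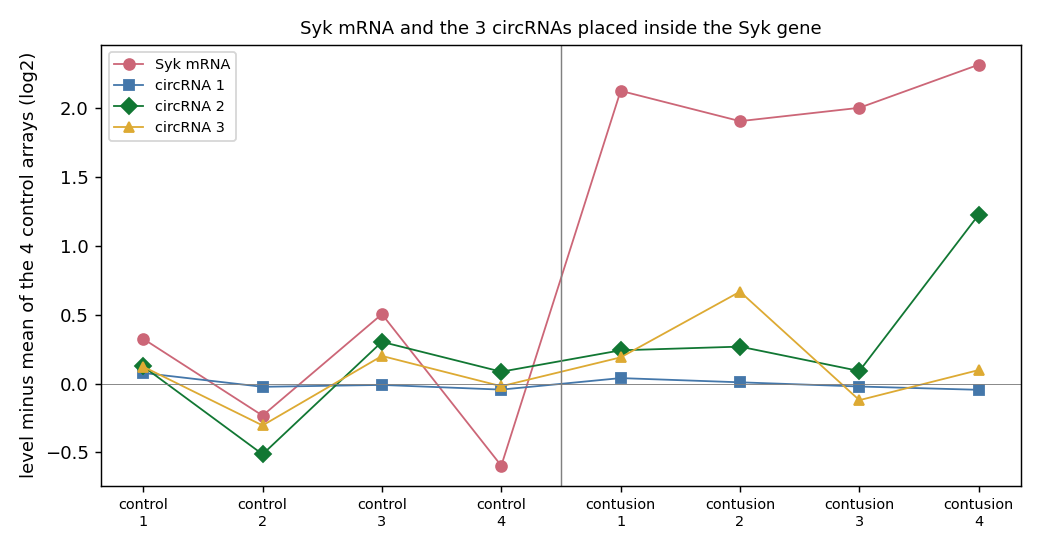
Level of the Syk mRNA and of the 3 circRNAs placed inside Syk, each minus its mean over the 4 control arrays (y axis, log2), on the 8 arrays (x axis); circRNA 1 spans 52631657 to 52638247, circRNA 2 ends at 52612455 and circRNA 3 at 52633065. The mRNA is higher on all contusion arrays, while circRNA 1 stays near 0 on all 8.

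Genes with the most similar levels over the 8 arrays were listed by Pearson's r. The arrays fall into 2 groups, so r carries the group difference as well and is given as a description. For Fcgr1 they were Cryba4, Cd86 and Fyb, for Fcgr3 Cd300c2, Fyb and Fcgr1, and for Fcgr4 Cd300c2, Ptprc and Cd52. Fcgr2b had Ltc4s, Pycard and Lrrc25, Fcer1g had Ctsc, Cd37 and Apobec1, and Syk had Hacd4, Dock8 and Fes, with r from 0.997 to 0.999 after rounding. Fcgrt was less close to any gene, with Aoah (r = 0.982), Klra23 (0.977) and C6 (0.970). With the group means removed, r was 0.979 to 0.995 for the genes listed with the other members. It was 0.953 to 0.964 for those listed with Fcgrt. The genes were picked for their high r over the same 8 arrays, so these values follow in part from that choice. They are no separate support. Control replicate 4 was the lowest control for all members but Fcgrt, and its share in these values was not tested.

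Fcgr3, Fcgr4, Fcgr2b and Fcer1g lie close together on chromosome 1, and the others on chromosomes 3 (Fcgr1), 13 (Syk) and 7 (Fcgrt). Besides the 7 genes themselves, 124 mRNA genes within 500 kb of one of them were tested, and 49 (39.5%) were called higher and 24 lower, with a median difference of 0.17. Over all mRNAs, 25.8% were called higher and 25.4% lower, with a median of −0.0016. With the other receptor genes left out of the count, Fcgr1, Fcgr4 and Fcgr2b exceeded all of their tested neighbours, and Syk exceeded the 3 it has. By the same count, 1 neighbour rose more than Fcgr3, Arhgap30 (2.01), and 1 more than Fcer1g, Slamf7 (3.01), both named after their values were seen. With normexp Slamf7 rose by 0.87, less than Fcer1g (2.12). Of the 55 neighbours of Fcgrt, 25 had a larger difference than its 0.27.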

How the data were processed

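RNA was measured on Agilent 1-colour (Cy3) arrays, 4 control and 4 contusion. Spot values are intensities that Feature Extraction had background-subtracted and detrended within each array, per the file headers. Its flags for dim, saturated and outlier spots (0 or 1) were used as deposited. Feature Extraction 10.7 and limma are listed in the submitters' processing notes, and the headers read 12.0.3.1. The authors' series table holds deposited log2 values, quantile normalized between arrays to a column median of 5.40, and was used as an alternative.

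Levels are log2 processed intensities after subtraction of each array's own 75th percentile. Between 6 and 53 outlier spots an array and all control spots were dropped. A probe was kept if at least 4 of 8 arrays had it well above background (72.9% to 75.4% of probes were on a given array, and 0 spots were saturated). Each gene was read by its probe of highest mean. Of 22694 mRNA accessions 99.1% matched RefSeq symbols. The groups were fitted in limma 3.58.1 under R 4.3.3 (lmFit, eBayes, no covariate, two-sided), with Benjamini-Hochberg adjustment over 89139 features: 18198 mRNAs, 35326 lncRNAs and 35615 circRNAs. Of the mRNAs, 9309 were called. Precision is limited by the number of arrays, with a median standard error of 0.0944 for mRNAs. The scripts were tested on simulated data.

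Pairs of members were compared with an exact permutation test. Named genes are all 7 members, up to 3 largest called rises and 2 largest called falls of each list, the defining markers of cell types, and the 3 genes most correlated with each member; some of the genes that this rule names are not reported here. Members, lists and rules were chosen with earlier results of these data known. Alternatives changed the background correction, scaling, filter, probe rule, block, spread model and the arrays used.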

Additional observations from a re-analysis of the deposited data

Results flagged for a closer look

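Over 136 groups of 4 arrays, 6 held an array far from the other 3 on the log2 scale, and chance alone flags about 1 in 20 groups. The groups were those of the 7 genes and of the list genes and defining markers given by the naming rule. Other genes named in the text, such as Alb and Inppl1, were not checked. None of the flagged groups was of the 7 Fc receptor genes. Lcp2 had its highest contusion array at 1.55, with the next at 1.47 and the lowest at 1.46. Pigr had its highest control array at −2.15 and the next at −3.37. Clec4e had its highest contusion array at −0.28 and the next at −0.99. C1qa had its lowest control array at 5.79 and the next at 6.79. Itga2b, a platelet marker, had its highest contusion array at −1.34 and the next at −2.19. Gp9, also of platelets, had its highest contusion array at 0.80 and the next at −0.48.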

How the results depend on the processing

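The 6 called genes kept direction and call under every alternative but 1, the use of contusion replicate 1 alone, where the differences were 2.02 for Fcgr1, 1.71 for Fcgr3, 3.17 for Fcgr4, 2.57 for Fcgr2b and 2.67 for Fcer1g, none of these 5 called, while Syk was still called. That setting also left 2497 called mRNAs and, over the lists, 23 higher and 2 lower; it has fewer samples. With the mean of a gene's probes 8 list members were lower. Fcgrt was called with normexp (0.29), a variance trend (0.27) and without control replicates 1 and 3 (0.43). Leaving out each replicate in turn gave 7928 to 9610 called mRNAs and differences of 1.72 to 2.39 for Fcgr1, 1.36 to 1.91 for Fcgr3, 2.41 to 3.40 for Fcgr4, 2.06 to 2.80 for Fcgr2b, 2.11 to 2.60 for Fcer1g, 1.89 to 2.25 for Syk and 0.20 to 0.36 for Fcgrt. Over the lists it gave 74 to 79 higher and 4 to 6 lower.

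With normexp 0 of the 21 pairs of members passed, a count tied to the floor of the exact test. The difference between Fcgr1 and Syk turned to −0.015 with the mean of probes and ran from −0.17 to 0.20 over left-out replicates, and that between Fcgr2b and Fcer1g from −0.05 to 0.23. The circRNA of Syk near 0 turned to 0.042 with normexp, 0.029 without control replicates 1 and 3 and 0.040 with contusion replicate 1 alone, and ran from −0.019 to 0.021 over left-out replicates. The circRNA ending at 52633065 gave −0.011 without contusion replicates 1 and 2. With contusion replicate 1 alone Vav2 turned to −0.014, and with the mean of probes Plcg1 to −0.0061. The cause of these shifts was not tested.

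Replicate numbers did not pair the arrays: same-numbered deviations correlated at −0.30, −0.01, 0.00 and −0.05. With a replicate block 7469 mRNAs were called, 74 list members were higher and 4 lower, and no call of the 7 genes changed. The variance trend does not apply to the exact tests.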

Other observations

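Several signalling proteins exist in a form of blood cells and a form found in most cells, and the lists held both. The values below were picked after they were seen and carry no test of the difference between the forms. Rac2 rose by 2.22 ± 0.38 while Rac1 differed by 0.12 ± 0.06 (0.21 and called with the mean of its probes). Vav1 rose by 2.22 ± 0.32, against 0.11 ± 0.09 for Vav2. The phospholipase gene Plcg2 rose by 1.56 ± 0.17 and Plcg1 differed by 0.10 ± 0.08. Both SHIP phosphatase genes rose, Inpp5d by 1.83 ± 0.20 and Inppl1 by 0.77 ± 0.07.

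Albumin is carried by Fcgrt, and the Alb mRNA read −0.75 on control replicate 4, against −3.84, −4.04 and −4.22 on the other controls and −4.18 to −3.55 on the contusion arrays. Between the groups Alb differed by −0.65 ± 0.72 and was not called (limma, adjusted p = 0.519). The same array was the lowest control for the 6 Fc receptor genes that rose. Fcgrt itself read 1.81 on that array, above its 1.70 on control replicate 2. A link between the Alb level and the Fc receptor levels was not tested.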
